A study of Mus musculus with 20 samples.

Results

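A group of 10 genes of the circadian clock were followed in the cardiac ventricle of old and young mice: Arntl, Clock, Npas2, Per1, Per2, Per3, Nr1d1, Nr1d2, Dbp and Bhlhe40. They were taken by symbol from the annotation of the array, which carried all 10 members among 18193 named genes. Old hearts came from 10 male C57BL/6J mice aged 25 to 28 months. Young hearts came from 10 male C57BL/6J mice aged 4 to 6 months. C57BL/6J is an inbred laboratory strain. Both groups were group-housed free of specific pathogens under 12 hours of light and 12 hours of dark, with no treatment. The hour at which the hearts were collected is not given in the sources used here, for either group. Total RNA of frozen ventricle was measured with 1 Affymetrix MOE430 2.0 array per mouse, on which each transcript is read by 1 or more groups of short probes called probe sets. The series itself asked about mitochondrial genes in ageing hearts.

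In mouse tissues the clock is a feedback loop of transcription. The proteins of Arntl (also called Bmal1) and of Clock or its relative Npas2 form a pair that binds E-box letters in DNA and switches on the Per genes, the Nr1d genes, Bhlhe40 and Dbp. Per proteins act with cryptochromes to repress that pair, and the Nr1d proteins (REV-ERBs) repress Arntl through ROR elements, so that over a day Arntl and Npas2 peak in an opposite phase to Dbp and the Nr1d genes. Levels of these genes therefore vary with the hour in the heart, where the clock is known for its control of fuel use.

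The control letters of that loop are shown for Dbp, Nr1d1, Per1 and Arntl. RefSeq windows of 300 bases on GRCm38.p6, running from 250 bases before a transcript start to 50 after it, were found for 8 of the 10 members, 12 windows in all. They were searched on both strands for the E-box CACGTG, the related CACGTT, the D-box as TTATGTAA or else as TTACGTAA, which PAR bZIP factors such as the Dbp protein bind, and TAGGTCA, the core of the ROR element. The E-box and its relative share their first 5 letters but were counted apart. Over all 32851 windows, 7.15% held CACGTG, 4.68% CACGTT, 1.06% a D-box and 2.61% TAGGTCA. Counted by gene the shares were 8.09, 5.44, 1.23 and 2.97%, and the share with any of these letters was not computed. Per2 and Bhlhe40 had no window. Clock, Npas2, Nr1d2 and Dbp had no match, nor did a further window of Arntl and of Per1. Among the 8 members with a window 4 had a match, and capitals mark it here, read 5′ to 3′ along the gene.
Dbp, chr7:45704997-45705296, plus strand, no match: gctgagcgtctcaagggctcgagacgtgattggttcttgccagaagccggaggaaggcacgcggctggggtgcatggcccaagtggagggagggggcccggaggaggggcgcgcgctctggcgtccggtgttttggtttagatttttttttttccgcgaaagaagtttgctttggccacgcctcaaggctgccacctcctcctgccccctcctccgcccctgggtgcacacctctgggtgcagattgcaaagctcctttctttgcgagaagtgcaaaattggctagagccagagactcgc
Nr1d1, chr11:98775328-98775627, minus strand: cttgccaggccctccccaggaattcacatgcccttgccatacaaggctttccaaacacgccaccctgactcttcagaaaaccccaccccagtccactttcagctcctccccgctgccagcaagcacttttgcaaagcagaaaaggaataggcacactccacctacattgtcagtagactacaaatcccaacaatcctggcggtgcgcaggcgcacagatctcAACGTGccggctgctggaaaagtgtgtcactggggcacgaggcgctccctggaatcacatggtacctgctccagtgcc
Per1, chr11:69098699-69098998, plus strand: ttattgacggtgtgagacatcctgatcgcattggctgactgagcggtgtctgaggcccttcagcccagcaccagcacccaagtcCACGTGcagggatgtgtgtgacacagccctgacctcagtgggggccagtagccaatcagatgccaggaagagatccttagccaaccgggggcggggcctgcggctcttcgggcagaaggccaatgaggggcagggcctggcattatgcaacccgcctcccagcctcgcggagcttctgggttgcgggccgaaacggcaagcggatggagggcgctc
Arntl, chr7:113207261-113207560, plus strand: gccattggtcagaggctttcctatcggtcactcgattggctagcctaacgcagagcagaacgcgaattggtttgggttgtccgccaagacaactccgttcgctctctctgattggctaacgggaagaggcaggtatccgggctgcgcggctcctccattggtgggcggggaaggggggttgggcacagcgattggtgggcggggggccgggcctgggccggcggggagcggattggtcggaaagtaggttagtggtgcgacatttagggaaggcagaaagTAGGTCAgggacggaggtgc
The Nr1d1 match is CACGTT on the opposite strand, starting 28 bases before the start. The Per1 window shown held CACGTG 166 bases before its start, and the Arntl window shown held TAGGTCA 31 bases after its start. Per3 held TTATGTAA 2 times, 205 and 158 bases before its start. A match is a description of letters and not a measured binding site, and a window without one says only that these letters are not in it.

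Each value is a log2 signal made with GCRMA, a method that leaves undetected transcripts at a common low level, the floor. Array medians were 3.07 to 3.15 in old hearts and 3.09 to 3.20 in young hearts, and probe sets that exceeded 4 on this scale made up 38.2 to 40.2% in old hearts and 37.8 to 38.3% in young hearts. Spearman correlations between arrays ran from 0.950 to 0.995, and no 2 arrays held identical values. Precision is limited by how many arrays there are. The summed level of 5 ventricular muscle genes, as log2 of the sum, was 17.35 to 17.57 in old hearts and 17.43 to 17.62 in young hearts, and none of the 5 passed the test of age. Transcripts of other cells moved with age. The summed atrial muscle level ran from 10.65 to 16.53 in old hearts (median 16.04) and from 9.92 to 12.37 in young hearts (median 11.22), and Myl7, the atrial myosin light chain, exceeded a log2 value of 10 in 7 old hearts and 0 young hearts. All 5 macrophage markers were higher in old hearts, with sums of 10.29 to 11.18 in old hearts and 9.55 to 10.36 in young hearts. Of the other lists, 1 of 4 fibroblast, 1 of 1 adipocyte, 1 of 3 smooth muscle and 1 of 1 red cell markers tested were higher in old hearts, and no endothelial marker passed. Adipocyte sums were 5.57 to 14.79 in old hearts and 3.56 to 7.02 in young hearts. The lung and thymus markers Sftpc, Scgb1a1 and Cd3e, the red cell marker Hba-a1 and the skeletal muscle marker Myh4 were under 4 on every array. The arrays also fell into 5 sets of 2 old and 2 young arrays each when clustered on 9246 genes without the clock genes. Residuals correlated at 0.40 on average within a set and -0.13 between sets, and the labels give no name to these sets. Fits with the sets as a block, with an index of the atrial transcripts as a covariate and without single sets were run, and calls that a named clock gene lost or gained are given with it. In bulk tissue, more cells of a type and more RNA per cell cannot be told apart.

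Of the clock genes 3 were higher in old ventricle: Bhlhe40, a repressor of the loop, by 0.89 on the log2 scale, Nr1d1, a repressor of Arntl, by 0.93, and Dbp, an output transcription factor, by 1.30. None of the other 6 tested members passed the test, and the activators Arntl, Clock and Npas2 were among these. Per3 was not tested, since none of its 6 probe sets exceeded a log2 value of 4 in at least 10 of the 20 arrays. Among all 9275 genes tested, 18.7% passed at an adjusted p under 0.05 in limma, 11.2% as higher and 7.49% as lower in old hearts, against 3 of 9 members higher and 0 of 9 lower. The members' median difference was 0.20 and that of all genes 0.01. Estimates above 0 numbered 6 of 9 among the members and 4761 of 9275 among all genes. Each of the 3 kept its call whichever of the 20 arrays was dropped from the fit. No member had old and young arrays that did not overlap at all, a pattern seen in 1.78% of all genes (1.36% with every old array above and 0.420% with every old array below).

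**Figure D1:**
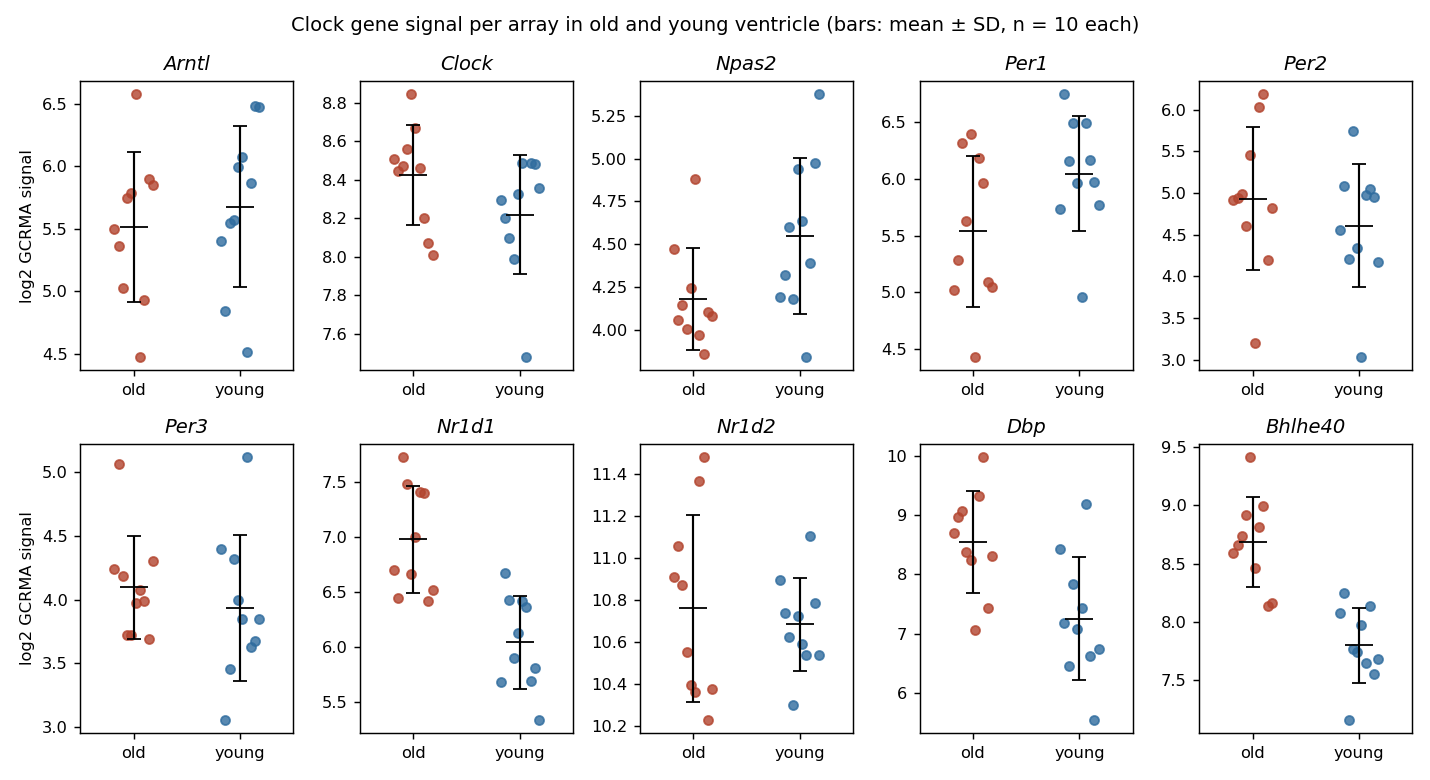
Log2 GCRMA signal of the 10 clock genes in each array (vertical axes, a separate scale for each gene), old arrays left and young arrays right, with bars for the mean and SD of 10 arrays. In Bhlhe40, 8 of the 10 old points lie above every young point, whereas Arntl points of old arrays, 4.47 to 6.58, cover the range of young arrays, 4.51 to 6.48.

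Arntl codes for the indispensable partner of the activating pair. Its signal ran from 4.47 to 6.58 in old hearts (median 5.62) and from 4.51 to 6.48 in young hearts (median 5.72). The groups overlapped almost fully. The difference was -0.16 ± 0.26 (SE; limma, adjusted p = 0.709). Within the 5 array sets the old minus young difference ran from -1.48 to 0.83. Over the 14 other settings run, the difference went no lower than -0.83, with the sets and the atrial index together (limma, adjusted p = 0.0995), and no higher than 0.17, without set 4, and it passed in none. A second Arntl probe set lay at the floor on all arrays, with means of 2.09 in old and 2.09 in young hearts, and carries no information on Arntl level.

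Clock, the DNA-binding partner of Arntl in most tissues, ran from 8.01 to 8.84 in old hearts (median 8.47) and from 7.48 to 8.48 in young hearts (median 8.31). On 4 old arrays the signal lay above every young array, and the lowest array of all was a young one. The difference was 0.20 ± 0.13 (SE; limma, adjusted p = 0.279). With the array sets as a block, Clock passed the test at an adjusted p of 0.0478 in limma, in a fit where 19.4% of all genes were called higher and 16.7% lower. Its probe sets disagreed, with differences of 0.13 ± 0.14 and -0.12 ± 0.18 (SE) in the other 2 that passed the filter.

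Npas2 can replace Clock in the activating pair. It sat close to the floor, at 3.86 to 4.88 in old hearts (median 4.09) and 3.84 to 5.38 in young hearts (median 4.50). Only 1 old array exceeded the young median. The difference was -0.36 ± 0.16 (SE; unadjusted p = 0.0362, adjusted p = 0.127 in limma). After quantile normalization it was -0.46 ± 0.16 and passed (limma, adjusted p = 0.0440), in a fit that called 8.72% of all genes higher and 11.4% lower, so that the call depends on how the arrays were scaled. It passed in none of the 13 remaining settings, in which it was -0.57 to -0.26. A second Npas2 probe set lay at the floor, at 2.13 to 2.18 in old and 2.17 to 2.24 in young hearts.

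The Per genes code for the period proteins, the repressors that accumulate late in each cycle. Per1 ran from 4.43 to 6.39 in old hearts (median 5.46) and from 4.96 to 6.74 in young hearts (median 6.06). The groups overlapped broadly, with 3 old arrays above the young median. The difference was -0.51 ± 0.24 (SE; unadjusted p = 0.0472, adjusted p = 0.151 in limma), it was below 0 in 4 of 5 array sets, and it was 0.02 with the sets and the atrial index together. Per2 ran from 3.20 to 6.19 in old hearts (median 4.93) and from 3.03 to 5.74 in young hearts (median 4.75). Its lowest arrays in both groups were near the floor, and the difference of 0.32 ± 0.33 (SE; limma, adjusted p = 0.533) was within the spread. It was 0.13 to 0.92 over the 14 other settings and passed in none. Per3 was dim. Its brightest probe set ran from 3.69 to 5.06 in old hearts (median 4.03) and from 3.06 to 5.12 in young hearts (median 3.85), with only 5 old and 3 young arrays above 4. The 6 Per3 probe sets differed in direction, from -0.11 to 0.63 on the log2 scale, old minus young.

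Bhlhe40 codes for DEC1, a repressor that competes for E-boxes and also responds to many outside signals. Its signal ran from 8.14 to 9.41 in old hearts (median 8.70) and from 7.16 to 8.25 in young hearts (median 7.76). All 10 old arrays lay above the young median, and 8 lay above every young array. It was higher in old hearts by 0.89 ± 0.15 (SE; limma, adjusted p = 0.000317), with means of 8.69 ± 0.39 in old and 7.80 ± 0.32 in young hearts (SD, n = 10 each). Old minus young was above 0 in all 5 array sets, from 0.44 to 1.12. Bhlhe40 kept its call in each of the 15 other settings run. Without the 7 old arrays high in Myl7, the difference over the 3 remaining old arrays was 0.89 ± 0.19 (limma, adjusted p = 0.0177), in a fit that called only 2.25% of all genes higher and 0.679% lower. A pair of gene lists with fast outside inputs was read beside it. In the fit to all arrays, which called 11.2% of all genes higher and 7.49% lower, 1 of 6 glucocorticoid-responsive genes passed. Fkbp5 was higher by 1.33 ± 0.29 (SE; limma, adjusted p = 0.00277). Of 6 tested immediate early genes 0 were higher and 2 were lower, Nr4a1 with a difference of -1.98 ± 0.35 (adjusted p = 0.000398) and Atf3 with -0.98 ± 0.24 (adjusted p = 0.00713). Whether these lists have a part in the Bhlhe40 result was not tested.

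Nr1d1, which codes for REV-ERB alpha, a receptor for haem that represses Arntl, ran from 6.42 to 7.72 in old hearts (median 6.85) and from 5.34 to 6.67 in young hearts (median 6.02). All 10 old arrays lay above the young median, and 6 lay above every young array. It was higher in old hearts by 0.93 ± 0.19 (SE; limma, adjusted p = 0.00170), with means of 6.98 ± 0.49 in old and 6.04 ± 0.42 in young hearts (SD, n = 10 each). All 5 array sets gave a value above 0, from 0.34 to 1.65. It lost its call in 1 of 15 other settings, without the 7 old arrays high in Myl7, where the difference was 0.81 ± 0.26 (limma, adjusted p = 0.122). Nr1d2, which codes for the related REV-ERB beta, ran from 10.23 to 11.48 in old hearts (median 10.71) and from 10.30 to 11.11 in young hearts (median 10.67). The medians nearly coincided while the old arrays spread wider. The difference was 0.08 ± 0.15 (SE; limma, adjusted p = 0.772), and a second, dimmer Nr1d2 probe set gave -0.26 ± 0.44 (adjusted p = 0.751). Over the 15 other settings the Nr1d2 difference was -0.09 to 0.43, the highest without the old arrays high in Myl7 and 0.41 with the atrial index, and it passed in none.

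Dbp codes for a PAR bZIP transcription factor that carries the rhythm to metabolic genes, and its transcript is among the most strongly cycling in mouse tissues. It ran from 7.06 to 9.99 in old hearts (median 8.54) and from 5.54 to 9.19 in young hearts (median 7.13). On 9 old arrays it lay above the young median, but on only 2 it lay above every young array, since young replicate 17 reached 9.19. Dbp was higher in old hearts by 1.30 ± 0.39 (SE; limma, adjusted p = 0.0231), with means of 8.55 ± 0.87 in old and 7.25 ± 1.04 in young hearts (SD, n = 10 each). Its other probe set gave 1.17 ± 0.36 (adjusted p = 0.0321). Old minus young differed widely between the array sets, from -0.64 in set 5 to 3.57 in set 4. The call was lost without set 1 (1.31, adjusted p = 0.0543 in limma), without set 2 (1.14, adjusted p = 0.119), without set 4 (0.73, adjusted p = 0.200) and without the old arrays high in Myl7 (1.75, adjusted p = 0.111), and it was kept in the 11 other settings, in which the largest value was 2.08 with the sets and the atrial index together.

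The size of the spread among arrays was compared for each member, because the hour of collection was unknown. The SD of Nr1d2 was 0.45 in old and 0.22 in young hearts (n = 10 each; two-sided permutation of the age labels on the log2 ratio of the SDs, p = 0.0283, adjusted over the 10 members p = 0.283). The adjusted p of the other 9 members was 0.818 or higher, so a difference in spread was not detectable for any member with 10 arrays a group. Of the variance of a member left after age, the share between array sets was 9.60% for Dbp, 23.5% for Arntl, 25.0% for Bhlhe40, 32.0% for Per1, 35.1% for Npas2, 42.7% for Per3 and 42.9% for Per2. It was 62.4% for Nr1d1, 73.0% for Nr1d2 and 73.1% for Clock, where the median of all genes was 54.1%.

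The rest of the clock was read from 26 further genes, of which 24 were on the array and 20 were tested. None of the 20 was higher in old hearts and 3 were lower, against 11.2% and 7.49% of all genes, and their median difference was -0.06. Nampt, the rate-limiting enzyme of NAD salvage, ran from 8.59 to 9.73 in old hearts (median 9.07) and from 9.34 to 9.98 in young hearts (median 9.84). On 7 old arrays it lay below every young array, and Nampt was lower in old hearts, with a difference of -0.63 ± 0.13 (SE; limma, adjusted p = 0.00164). All 3 of its probe sets were below 0, from -0.63 to -0.51. It lost its call with the atrial index as a covariate (-0.47, adjusted p = 0.117) and without the old arrays high in Myl7 (-0.30, adjusted p = 0.333), and it was called with the sets and the index together (-0.62, adjusted p = 0.0182).

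Pdk4, a kinase that shuts off pyruvate oxidation, ran from 9.59 to 12.74 in old hearts (median 11.08) and from 11.10 to 13.28 in young hearts (median 11.98). On 6 old arrays it lay below every young array, and the difference was -0.91 ± 0.30 (SE; limma, adjusted p = 0.0368). Dropping arrays in turn kept the call in 12 of 20 fits, with adjusted p up to 0.0684, and a permutation test across all genes, which called 11.3% higher and 8.20% lower, gave an adjusted p of 0.0554. The call was also lost without set 1 (-0.87, adjusted p = 0.102 in limma), without set 2 (-0.86, adjusted p = 0.132), without set 4 (-0.71, adjusted p = 0.175) and without the old arrays high in Myl7 (-1.12, adjusted p = 0.0817). Csnk1d codes for casein kinase 1 delta, which phosphorylates Per proteins. Its brightest probe set was lower in old hearts, with a difference of -0.35 ± 0.10 (SE; limma, adjusted p = 0.0132) and values of 7.71 to 8.32 in old hearts and 8.12 to 8.90 in young hearts. Its other 4 probe sets gave 0.06 to 0.40 and none passed, and the mean over the 5 was 0.11 (adjusted p = 0.546), so the direction for Csnk1d rests on the probe set chosen. The call of the brightest probe set was lost with the atrial index (-0.36, adjusted p = 0.119 in limma), with the sets and the index together (-0.25, adjusted p = 0.187), without set 3 (-0.32, adjusted p = 0.0937) and without the old arrays high in Myl7 (-0.30, adjusted p = 0.307).

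Among the repressors of the loop none of 3 tested genes passed. Ciart, whose protein represses the activating pair, ran from 3.47 to 6.87 in old hearts (median 5.38) and from 2.66 to 5.35 in young hearts (median 4.74). On 5 old arrays it lay above every young array, and the difference of 1.06 ± 0.38 (SE; unadjusted p = 0.0110, adjusted p = 0.0562 in limma) missed the threshold. It passed after centring each array on its median (adjusted p = 0.0486), with the array sets as a block (0.0344), with the atrial index (1.82, adjusted p = 0.0222), with both (2.12, adjusted p = 0.00719) and without array set 5 (1.45, adjusted p = 0.0291). Cry1 and Cry2, the cryptochromes, gave -0.14 ± 0.12 and 0.12 ± 0.08 (SE; limma, adjusted p = 0.470 and 0.323). Of the factors at ROR elements and D-boxes, Rora gave 0.00 ± 0.15 (adjusted p = 0.994) and Nfil3, a repressor at D-boxes, -0.50 ± 0.23 (adjusted p = 0.144). The PAR bZIP relatives of Dbp, Tef and Hlf, gave -0.07 ± 0.12 (adjusted p = 0.748) and 0.20 ± 0.27 (adjusted p = 0.649). Of 6 tested genes for turnover and phosphorylation only Csnk1d passed, and of 6 output genes only Nampt and Pdk4.

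**Figure D2:**
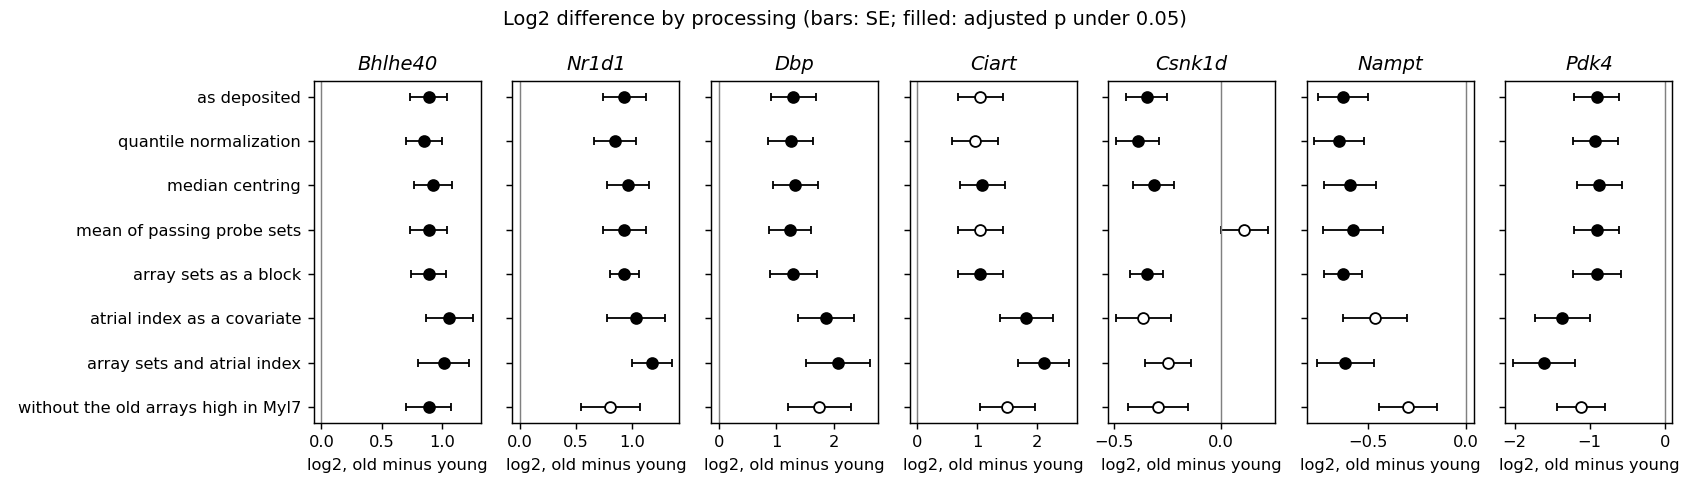
Old minus young difference on the log2 scale (horizontal axes, a separate scale for each gene) of the called members and 4 further clock genes under 8 ways of processing (rows), with bars for the SE and filled points where the adjusted p was under 0.05. Bhlhe40 stays near 0.9 to 1.1 and filled in every row, and Csnk1d changes side once its probe sets are averaged.

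The background of calls moved with the setting, which bears on how each such call reads. With the atrial index as a covariate 2.81% of all genes were called higher and 0.927% lower, and with the sets and the index together 4.36% and 1.89%. Median centring gave 12.3% and 5.66%, and averaging the probe sets of a gene that passed gave 10.8% and 7.17%. Bhlhe40, Nr1d1 and Dbp were called higher in each of these 4 fits.

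The labels give no hour of collection, and the activators and their targets peak at opposite times of day, so each activator was set against each target across the arrays of 1 group. There were 18 pairs in each group and the p-values were adjusted over all 36. In old hearts 16 of the 18 Pearson correlations were below 0 and 3 passed, all with Arntl. In young hearts 15 of 18 were below 0 and 0 passed, with 3 at an unadjusted p under 0.05 and a smallest adjusted p of 0.108 (two-sided permutation tests, 10 arrays each). Each pair of a group shares its 10 arrays, so the counts are not independent.

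Arntl and Dbp had the tightest relation in old hearts, while in young hearts Npas2 and Dbp (r -0.733) came slightly ahead of it. Pearson's r was -0.897 in old hearts (permutation p = 0.000590, adjusted p = 0.0126) and -0.722 in young hearts (permutation p = 0.0183, adjusted p = 0.108). Spearman's rho was -0.976 in old hearts (permutation p = 2e-05, adjusted p = 0.00072) and -0.612 in young hearts (permutation p = 0.0671, adjusted p = 0.316). In old hearts the 2 lowest Arntl arrays, replicates 7 and 8, held the 2 highest Dbp values, 9.32 and 9.99, and the highest Arntl array, replicate 6, held the lowest, 7.06. In young hearts the lowest Arntl array, replicate 17, held the highest Dbp, 9.19, and the highest Arntl array, replicate 19, held the lowest, 5.54. Without the 2 arrays farthest from the Arntl median, r was -0.911 in old and -0.661 in young hearts. With the array sets removed it was -0.805 in old and -0.920 in young hearts. Old and young arrays share the mean of their set, so removing it draws the values of both groups together by construction. Without any 1 array r was between -0.939 and -0.836 in old hearts and between -0.824 and -0.526 in young hearts, and the old call was lost without replicate 6 (r -0.836, exact permutation adjusted p = 0.0806). The second Dbp probe set gave -0.909 in old and -0.838 in young hearts. The plot of targets against Arntl shows the arrays of both groups.

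**Figure D3:**
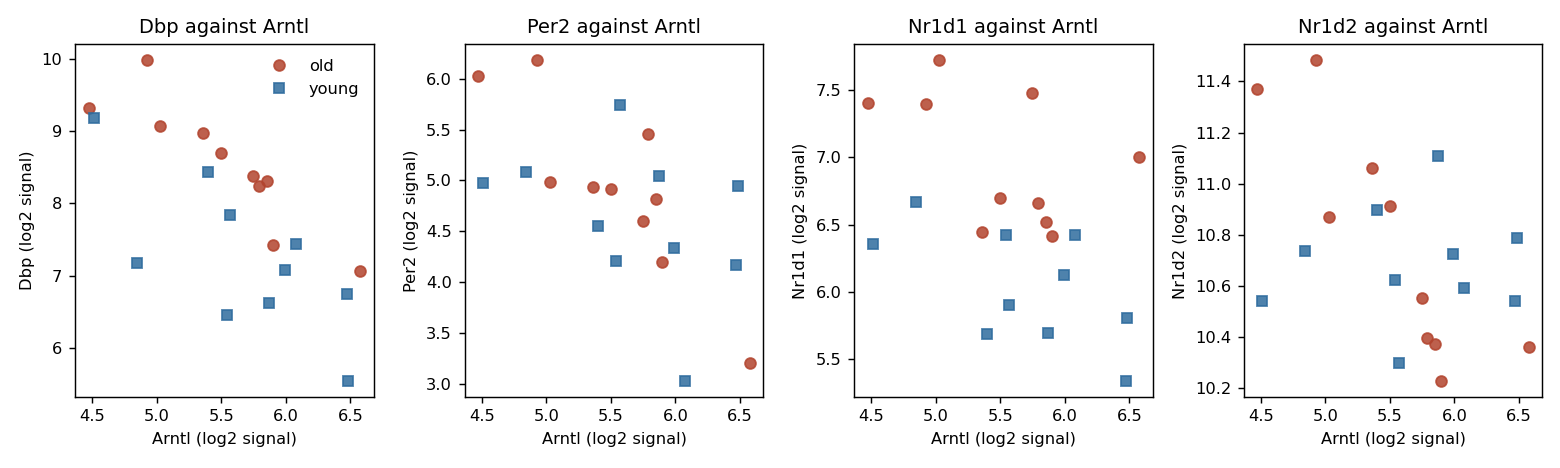
Log2 signal of Dbp, Per2, Nr1d1 and Nr1d2 (vertical axes) against that of Arntl (horizontal axes) in each of 10 old arrays (circles) and 10 young arrays (squares). Dbp is lower where Arntl is higher in both groups, with r of -0.897 in old and -0.722 in young arrays, and so is Nr1d2 in old arrays (r -0.864) but not in young arrays (r 0.109).

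Arntl and Per2 gave r of -0.861 in old hearts (permutation p = 0.00235, adjusted p = 0.0282; rho -0.842, permutation p = 0.00374, adjusted p = 0.0449) and -0.371 in young hearts (permutation p = 0.293, adjusted p = 0.458; rho -0.467, permutation p = 0.180). The old value leaned on the ends of the Arntl range, since it was -0.648 without the 2 farthest arrays. There it was not among the 3 relations called in old hearts. With the array sets removed it was -0.724. The call was also lost with the atrial index removed (r -0.826, permutation adjusted p = 0.0527), without old replicate 4, 6, 7, 8 or 9 (exact permutation adjusted p = 0.0504 to 0.132) and without set 1, 3, 4 or 5 (exact permutation adjusted p = 0.0563 to 0.360). Old replicate 6 held the lowest Per2 of its group, 3.20, with the highest Arntl. Arntl and Per1, the member with CACGTG in its window, gave -0.707 in old and -0.617 in young hearts (permutation adjusted p = 0.108 and 0.167). Arntl and Nr1d1, the member with CACGTT, gave -0.489 in old and -0.598 in young hearts (permutation adjusted p = 0.344 and 0.191), and with the array sets removed -0.644 in old and -0.840 in young hearts.

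Over arrays pooled across the sets, Arntl and Nr1d2 was the pair in which the groups differed. The r was -0.864 in old hearts (permutation p = 0.000700, adjusted p = 0.0126; rho -0.939, permutation p = 0.000150, adjusted p = 0.00270) and 0.109 in young hearts (permutation p = 0.765, adjusted p = 0.861; rho 0.0788, permutation p = 0.841). The second, dimmer Nr1d2 probe set gave -0.498 in old and 0.361 in young hearts. With the mean of both probe sets the old call was lost (r -0.641, permutation adjusted p = 0.154). It was also lost with the atrial index removed (-0.758, permutation adjusted p = 0.0721), without old replicate 7 (-0.821, exact permutation adjusted p = 0.110) and without set 1, 3 or 4 (exact permutation adjusted p = 0.0661 to 0.264). The difference of Fisher z, old minus young, was -1.42 (two-sided permutation of the age labels, p = 0.000520, adjusted over 18 pairs p = 0.00936), and none of the other 17 pairs passed that test. With the mean of both probe sets the difference was -1.10 (permutation p = 0.0277), and with the atrial index removed it was -1.10 (permutation p = 0.0154). With the array sets removed the relation was -0.752 in old and -0.894 in young hearts. Since that removal draws the groups together, it is no test of their difference. Young arrays alone can be read within each set, without that removal. In each set the young array with more Arntl held less Nr1d2, such as 6.47 and 10.54 against 5.40 and 10.90 in set 1. In old hearts the same held in every set but set 4. The r of 0.109 in young hearts thus describes arrays pooled over the sets. The part of the sets in the difference between the groups was not tested. Of the variance of Nr1d2 after age, 73.0% lay between the sets.

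Npas2 followed the same direction with Dbp, at -0.679 in old and -0.733 in young hearts (permutation adjusted p = 0.121 and 0.108). Clock and Dbp gave -0.131 in old and -0.700 in young hearts (permutation adjusted p = 0.839 and 0.113), a difference that did not pass the test of the groups (permutation adjusted p = 0.644). Without the 2 arrays farthest from the Clock median, r was -0.788 in old and -0.186 in young hearts. Which group had the stronger relation thus rests on those arrays. With the array sets removed, 17 of 18 pairs in old hearts and 18 of 18 in young hearts were below 0, and 9 in old and 5 in young hearts passed. Those p-values are too small, since the residuals of a set share its mean across both ages, and the counts of the groups are not independent of each other. The call for Arntl and Dbp in old hearts was lost without set 1 (r -0.900, adjusted p = 0.0679) and without set 3 (-0.825, adjusted p = 0.132), with 8 arrays left.

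**Figure D4:**
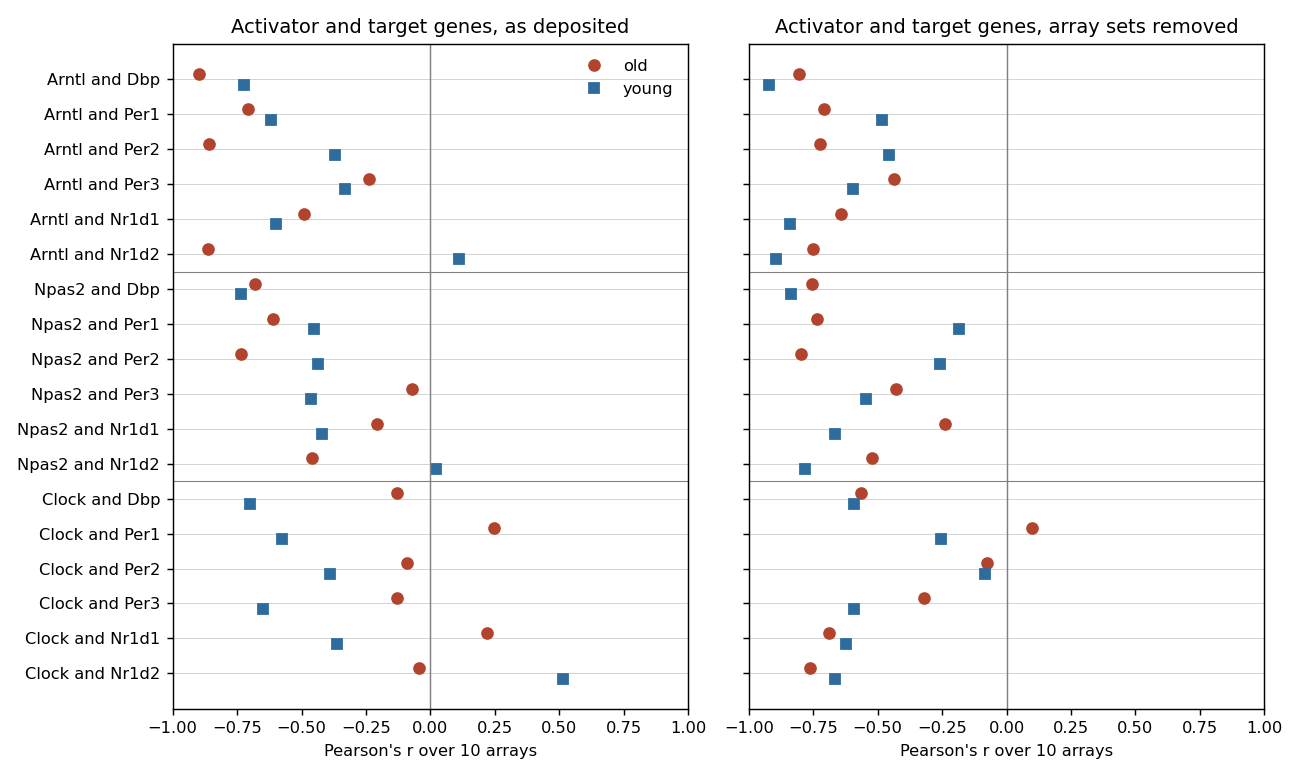
Pearson's r over 10 arrays (horizontal axes) for each of 18 pairs of an activator and a target (rows), old as circles and young as squares, with the values as deposited on the left and with the array sets removed on the right. On the left 16 old and 15 young points lie below 0, and on the right, where the removal draws both groups together, 17 and 18 do.

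The activators were also compared among themselves, a family of 6 relations added after the values were seen. Arntl and Npas2 gave r of 0.688 in old hearts (permutation p = 0.0298, adjusted p = 0.0585; rho 0.624, permutation p = 0.0593) and 0.861 in young hearts (permutation p = 0.00144, adjusted p = 0.00864; rho 0.867, permutation p = 0.00212). The old value was 0.279 without the 2 arrays farthest from the Arntl median, so it rests on those arrays, and the young value was 0.863 without them. Arntl and Clock gave 0.139 in old hearts (permutation adjusted p = 0.704) and 0.784 in young hearts (permutation p = 0.00530, adjusted p = 0.0159; rho 0.733, adjusted p = 0.0614). Neither pair differed between the groups past the threshold (permutation adjusted p = 0.455 and 0.331). Another Clock probe set gave 0.679 with Arntl in old hearts and 0.759 in young hearts. A further Clock probe set that passed the filter gave 0.517 in old and -0.420 in young hearts. The relation of Arntl and Clock thus depends on the probe set in old hearts as well as in young hearts.

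**Figure D5:**
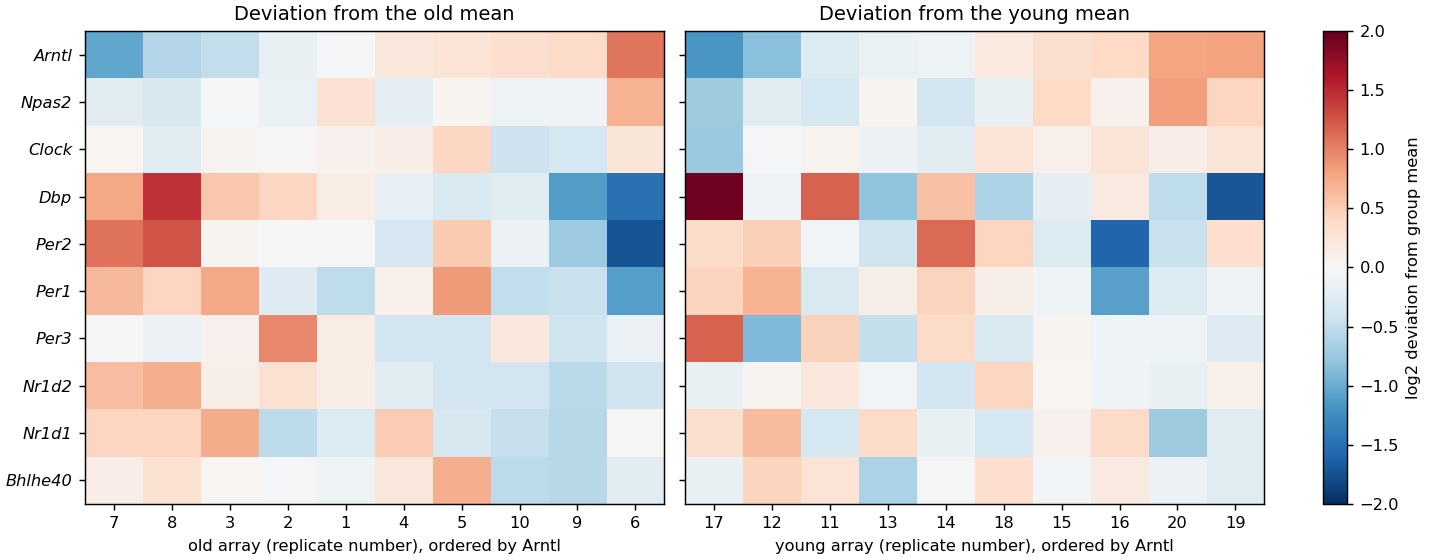
Deviation of each clock gene from the mean of its group on the log2 scale (colour, limited to 2 either way) in 10 old arrays on the left and 10 young arrays on the right, each ordered from the lowest to the highest Arntl. In old arrays Dbp, Per2 and Nr1d2 lie mostly above their means at the low end of Arntl and below at the high end, and in young arrays Dbp is highest at the lowest Arntl and lowest at the highest.

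Over the residuals of all 20 arrays from their group means, the members most like Arntl were Npas2, with r of 0.784, and, in the opposite direction, Dbp, with -0.797. Among the other tested genes the 5 most like Arntl were Adam19 (0.795), Golm1 (0.736), Ypel2 (0.726), F2r (0.713) and Rab5a (0.711). The 5 most opposite to Arntl were Mid1ip1 (-0.793), Ciart (-0.769), Tef (-0.712), Snrpf (-0.699) and Msrb1 (-0.694), of which Ciart and Tef are clock genes. With Dbp the highest were Cbr2 (0.751), Mlx (0.741), Tcap (0.731), Coq10b (0.725) and Shmt1 (0.719), and the lowest were Adam19 (-0.763), Tbc1d8 (-0.762), Snx19 (-0.724), Smarcal1 (-0.724) and Lmbrd1 (-0.723). Adam19, a membrane metalloprotease, stood at an end of both lists, and its own old minus young difference was -0.40 (limma, adjusted p = 0.168). These values describe 20 arrays that share the sets above and carry no test.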

How the data were processed

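RNA of 10 old and 10 young hearts was measured on 20 arrays, grouped by their titles. Both ages are called young in the series' own design text, so titles and protocols were followed. The deposited values are on a log2 scale, and per the submitters' processing notes the authors made them with GCRMA, which uses probe sequence to correct background and then normalizes and summarises probe sets. Its version is not given in the sources used here, and the scale was inferred from the range of the values.

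Of 45101 probe sets, 64 were controls, 34945 had 1 gene in the platform annotation, 932 had several and 9160 were unnamed here, and 34741 had an identifier in the gene table of GRCm38.p6. A probe set passed with a log2 value above 4 in at least 10 of 20 arrays, and a gene was read from its passing probe set of highest mean, which gave 9275 genes. A gene under 4 in all young arrays thus passed only if every old array exceeded 4. Per3 entered the relations through its brightest probe set. Old and young were compared with limma 3.58.1 (lmFit and eBayes, R 4.3.3), with p-values adjusted by Benjamini-Hochberg across the 9275 genes and called under 0.05. Differences are log2 values, old minus young. Relations were tested by two-sided permutation with 100000 resamples, or by exact enumeration under 10 arrays (scipy 1.17.1, numpy 2.4.6).

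The array sets came from average linkage clustering of residuals with the clock genes left out (mean silhouette 0.352 at 5 sets). For the atrial index, linear values of Myl7 and Sln were each scaled to their highest array and then averaged. Other settings were quantile normalization, median centring, the mean of passing probe sets, no filter, a filter at 6, a permutation test, the sets, the index, and leaving out arrays or sets. The fits were tested on simulated data. The members, lists and tests were chosen with earlier results of these data known. Named genes are all members, the further clock genes that were called, 8 set clock genes, and the 5 most and least like Arntl and Dbp.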

Additional observations from a re-analysis of the deposited data

Results flagged for a closer look

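Single arrays stood apart in 2 of the 40 groups of 10 arrays examined, where chance gives about 1 in 20. Clock had its lowest young value, 7.48 in replicate 17, far below the other 9 young arrays, and the same array held the highest young Dbp and the lowest young Arntl. Per3 had its highest old value, 5.06 in replicate 2, far above the other 9 old arrays, on a probe set that did not pass the filter.

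Over arrays pooled across the sets, the relation of Arntl and Nr1d2 differed between old and young hearts, with a difference of Fisher z of -1.42. The test permuted the age labels and took no account of the sets. Within each set the young array with more Arntl held less Nr1d2, and so did the old one except in set 4. The part of the array sets in the Fisher z difference was not tested. Old and young arrays share each set's mean, and removing it draws the groups together.

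Dbp was also set against the 6 clock output genes in each group, 12 relations added after the values were seen. Of these, 3 passed in old hearts and 3 in young hearts. Pdk4 gave the strongest, r -0.941 in young hearts (permutation adjusted p = 0.00144), and -0.502 in old hearts (permutation adjusted p = 0.180). Wee1 gave 0.797 in old hearts (permutation adjusted p = 0.0148) and 0.313 in young hearts (0.409). Neither pair differed between the groups past the threshold (permutation adjusted p = 0.132 for each). Tsc22d3, a glucocorticoid-induced gene, gave r of 0.804 in old hearts (permutation p = 0.00567, adjusted p = 0.0148; rho 0.842, permutation adjusted p = 0.0216) and -0.840 in young hearts (permutation p = 0.00239, adjusted p = 0.0143; rho -0.782, permutation adjusted p = 0.0308). The difference of Fisher z was 2.33 (permutation of the age labels, adjusted over 6 pairs p = 0.00276). Klf9 gave 0.732 in old and -0.460 in young hearts, a difference of 1.43 (permutation adjusted p = 0.00639), and Klf15 gave 0.525 in old and -0.796 in young hearts, a difference of 1.67 (permutation adjusted p = 0.0264). The permutation of the age labels took no account of the sets. With the array sets removed, r was 0.225 in old and -0.535 in young hearts for Tsc22d3. It was 0.260 and -0.192 for Klf9, and 0.215 and -0.432 for Klf15. The 3 differences were then 0.83, 0.46 and 0.68. The removal draws them toward 0 by construction, so they are no test of the groups. The part of the sets in these differences was not tested.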

How the results depend on the processing

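Members called higher numbered 3 in the deposited values and 4 with the sets as a block (Clock added). They numbered 2 without set 1, 2 or 4 (Dbp lost). Without the old arrays high in Myl7, where 3 old arrays remained, they numbered 1 (Bhlhe40). Members called lower numbered 0, or 1 (Npas2) after quantile normalization. Further clock genes called higher numbered 0, and 1 (Ciart) after median centring, with the sets as a block, with the atrial index, with both, and without set 5. Those called lower numbered 3, and 5 with the sets as a block (Btrc and Tsc22d3 added), 1 (Pdk4) with the atrial index and 0 without the old arrays high in Myl7. Relations called in old hearts numbered 3, and 9 with the sets removed, 1 with the atrial index, 0 without set 1 or set 3, and 1 without set 4. Those in young hearts numbered 0, and 5 with the sets removed and 3 without set 2. Leaving out 1 array gave 3 to 3 members higher, 0 to 0 lower, 0 to 1 further genes higher, 2 to 4 lower, 1 to 4 relations in old hearts (1 without old replicate 6 or 7) and 0 to 0 in young hearts. The cause of these shifts was not tested.

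Signs that turned belonged mostly to differences within their SE. These were Arntl without set 4 (0.17), Per1 with sets and index (0.023), and Nr1d2 with the mean of its probe sets (-0.093), without set 4 (-0.024) and from -0.0040 to 0.14 over single arrays left out. Csnk1d was 0.11 with the mean of its probe sets. Tef was 0.052 with the mean, 0.068 with the index, 0.065 with both and 0.0066 without the arrays high in Myl7. Hlf was -0.074 without set 4 and as low as -0.0024 over single arrays left out, where its highest was 0.32. Rora was -0.057 after quantile normalization, -0.14 with the mean, -0.031 without set 3, -0.088 without set 5, -0.21 with both, and -0.063 to 0.075 over single arrays. The difference of the Arntl and Nr1d2 relation was 0.46 with the sets removed, which draws the groups together by construction. No paired analysis was possible because the groups share no replicate numbers in the labels, and the array sets found in the data were fitted as a block in its place. The 20 arrays, the floor of GCRMA for Npas2 and Per3, and the unknown hour of collection limit what can be read.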
